A study of Mus musculus with 2 samples.

Results

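The sensory miRNA cluster consists of the 3 hairpin genes Mir183, Mir96 and Mir182, which lie side by side on mouse chromosome 6. The members were taken by gene identifier from the deposited count tables, and all 3 of them were found among the 1973 counted miRNA genes. MicroRNA sequencing had been carried out on embryonic facial prominence, from which the face and jaws develop, of healthy B6NCrl mouse embryos at embryonic day 15.5. The 2 libraries of this single group come from separate pools, 62 embryos of both sexes in replicate 2 and 78 embryos of both sexes in replicate 1. The labels name no treatment or mutation, so the only comparison to be made sets replicate 2 against replicate 1. Pooled whole tissue cannot tell apart fewer cells that make a miRNA from less of the miRNA in each cell.

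A miRNA hairpin is cut from a longer primary transcript by Drosha and then by Dicer, and 1 strand of the resulting duplex guides Argonaute to target mRNAs. Pairing between the target and the seed, which is bases 2 to 8 of the mature miRNA, largely sets which mRNAs are repressed. The cluster is known from hair cells of the inner ear, photoreceptors of the retina and other sensory cells, where its members are made from a common primary transcript. Mir96 is the deafness gene of the cluster, since changes in its seed cause hearing loss in mice and in people. Mir182 is abundant in the mouse retina, and miR-96 and miR-182 are known to repress the transcription factor FOXO1 in human breast cancer cells. Mir183 is the first hairpin of the transcript and gives the cluster its name. The marker lists used here hold no other miRNA that defines hair cells or photoreceptors, so the name describes the genes and not the cells that made them in this tissue.

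The 5p mature miRNAs are shown first because their seeds are close relatives without being the same. They were taken from RefSeq on build GRCm38.p6, which has the coordinates of mm10, and all 3 members matched by symbol and by position. Capitals mark the seed.
miR-183-5p: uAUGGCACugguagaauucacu
miR-96-5p: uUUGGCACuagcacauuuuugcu
miR-182-5p: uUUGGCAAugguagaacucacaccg

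With positions counted from 1 at the 5′ end, the seeds of miR-183-5p and miR-96-5p differ by A2U, with the base of miR-183-5p given first. The seeds of miR-182-5p and miR-96-5p differ by A8C, with the base of miR-182-5p given first. The seeds of miR-183-5p and miR-182-5p differ at both places, by A2U and C8A. After the seed the relation is another one. Compared without gaps from base 9 on, miR-183-5p had the same base as miR-182-5p at 12 of 14 positions and the same base as miR-96-5p at 6 of 14, and miR-182-5p and miR-96-5p matched at 5 of 15. Thus miR-96-5p shares most of its seed with each neighbour, whereas miR-183-5p and miR-182-5p are alike along the rest of the molecule.

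The hairpins are shown because the deposited counts are per hairpin and do not tell the arms apart. Capitals mark the annotated 5p and 3p mature miRNAs, and each sequence is written 5′ to 3′ on the minus strand.
Mir183, chr6:30169668-30169737: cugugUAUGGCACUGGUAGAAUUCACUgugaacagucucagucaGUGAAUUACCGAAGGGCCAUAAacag
Mir96, chr6:30169446-30169551: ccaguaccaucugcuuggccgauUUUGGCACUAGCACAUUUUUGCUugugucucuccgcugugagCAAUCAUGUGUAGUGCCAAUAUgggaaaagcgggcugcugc
Mir182, chr6:30165918-30165992: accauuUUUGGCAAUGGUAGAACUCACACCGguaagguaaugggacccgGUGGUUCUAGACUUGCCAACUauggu

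In the minimum free energy fold computed from these sequences, 19 of 22 bases of the 5p arm were paired in Mir183, 19 of 23 in Mir96 and 18 of 25 in Mir182. None of the 3 hairpins has 20 bases in a row in common with any other miRNA gene, so no near-identical copy competes for their reads by that measure. The cluster spans 3820 bases from the start of Mir182 to the end of Mir183. Along the direction of transcription Mir183 comes first, Mir96 follows after 116 bases, and Mir182 after a further 3453 bases. In GENCODE M21 no other gene overlaps this span, so the 3 hairpins are neither exonic nor intronic to another annotated gene. The noncoding gene Rncr4 starts 3155 bases from Mir183 and is annotated on the plus strand, pointing away from the cluster. The nearest protein-coding genes are Nrf1, which ends 12459 bases beyond Mir182, and Ube2h, which lies 41551 bases beyond Mir183.

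The libraries held 6408008 reads assigned to miRNA genes in replicate 2 and 2978463 in replicate 1, and 333 genes had at least 10 reads in each, which is called detected here. All 3 members were detected with at least 6086 reads in each library, so counting error was small beside the difference between the pools. Levels are given in CPM, that is assigned reads scaled to a common library size, with factors from the trimmed mean of M values (TMM). They were compared between hairpins without scaling for length, since libraries of this size class read whole mature miRNAs. Whether the libraries captured different mature sequences equally well was not tested, so orders and folds between hairpins describe reads.

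Mir183 had 57529 reads or 9009 CPM in replicate 2, against 18626 reads or 6232 CPM in replicate 1. Mir182 had 52551 reads or 8230 CPM in replicate 2, against 19088 reads or 6386 CPM in replicate 1. Mir96 had 20131 reads or 3153 CPM in replicate 2, against 6086 reads or 2036 CPM in replicate 1. Each member was higher in replicate 2, and Mir96 was the lowest member in both pools.

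Over both pools Mir183 averaged 7620 ± 1964 CPM, Mir182 7308 ± 1303 CPM and Mir96 2594 ± 789 CPM (SD, n = 2 each). The means of Mir183 and Mir182 differed by less than either SD, and their order was opposite in the pools. In each pool Mir96 was below both neighbours by more than its own SD over the pools. In reads, the members did not follow their order along the transcript, since the middle hairpin, which lies closest to Mir183, had the lowest level.

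**Figure D1:**
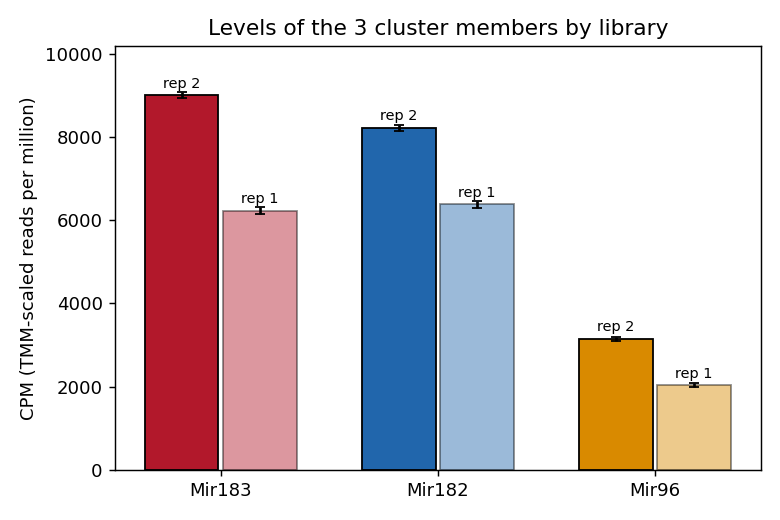
CPM of each member in replicate 2 (full colour, left) and replicate 1 (pale, right), with bars from 0 and error bars for the exact 95% Poisson interval of the reads, which covers counting error only. Mir183 and Mir182 stand between 6232 and 9009 CPM, and Mir96 stands at 3153 CPM in replicate 2 and 2036 CPM in replicate 1.

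**Figure D2:**
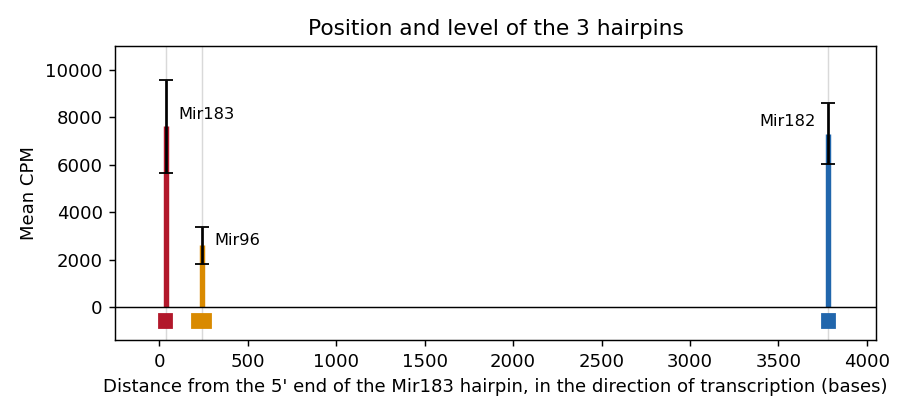
Mean CPM of each hairpin (vertical line, with the SD over the 2 replicates) against its distance in bases from the 5′ end of Mir183, with the hairpins drawn to scale as boxes under the axis. Mir96, 116 bases from Mir183, has a mean of 2594 CPM, and Mir182, a further 3453 bases away, has 7308 CPM.

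The cluster supplied 2.03% of the assigned reads in replicate 2 (95% Clopper-Pearson interval 2.02 to 2.04) and 1.47% in replicate 1 (1.46 to 1.48). Such intervals treat the reads of 1 library as independent draws, so they cover counting error only. The labels name no molecular identifiers, so reads copied from the same molecule could not be told apart. Among all counted genes Mir183 ranked 28 by mean CPM, Mir182 ranked 30 and Mir96 ranked 66. The genes next to them in level did not differ from them beyond the larger SD of each pair. Mir183 stood between Mir127 (8976 ± 1222 CPM), an imprinted miRNA, and Mir652 (7589 ± 478 CPM). Mir182 stood between Mir652 and Mir98 (7086 ± 279 CPM), a let-7 family member. Mir96 stood between Mir342 (2605 ± 352 CPM) and Mir18 (2566 ± 370 CPM), a member of the Mir17 cluster (SD, n = 2 each).

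Nearly all reads of the members lay on the strand of the gene. Over both libraries 10 of 174011 reads, or 0.00575%, lay on the opposite strand, against 3.36% of all assigned reads in replicate 2 and 3.30% in replicate 1. That share of all reads includes genes counted wholly from the opposite strand, such as Gm24321 with 39637 reads in replicate 2. It therefore does not describe a typical gene. Mir96 had no read on the opposite strand, which allows a share of up to 0.0149% in replicate 2 and 0.0493% in replicate 1.

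The members were then compared between the pools to ask how far replicate dissections of this tissue differ in the cluster. Mir96 had the highest log2 ratio of replicate 2 over replicate 1, at 0.63 (exact 95% interval 0.59 to 0.67). Mir183 had a ratio of 0.53 (0.51 to 0.56) and Mir182 a ratio of 0.37 (0.34 to 0.39). The summed cluster reached 20391 CPM in replicate 2, against 14654 CPM in replicate 1, a log2 ratio of 0.48 (0.46 to 0.49). In linear terms Mir96 was 1.55-fold, Mir183 1.45-fold and Mir182 1.29-fold higher in replicate 2.

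All 3 members passed a two-sided exact binomial test adjusted by Benjamini-Hochberg over the 333 detected genes, with the largest of their adjusted p-values, that of Mir182, at 6.42e-204. The same test called 53.5% of all detected genes, and 25.8% in the direction of replicate 2. Genes with more reads pass it more easily, and those at the level of the members or above were called more often than these shares. It compares these libraries, not populations, and covers counting error only, since there is 1 library on each side and thus no replicate spread to test against. Of the 3 members only Mir96 was over 1.5-fold higher in replicate 2, which held for 7.51% of the detected genes. With all reads of the library as denominator the log2 ratio of Mir96 was 0.46, which is under that limit. The same denominator gave 0.36 for Mir183 and 0.19 for Mir182, so that the ratio of Mir182 was over 1.5 times smaller, and all 3 still passed the exact binomial test.

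Among the 333 genes, ordered from the highest ratio toward replicate 2, Mir96 took place 21, Mir183 place 33 and Mir182 place 48. The median log2 ratio of the detected genes was −0.02 and their median size 0.20. Of the 102 detected genes with a mean of at least 1000 CPM, 9 had a ratio at or above that of Mir182. This limit is the lowest ratio among the members, so all 3 of them were among the 9 by construction. The other 6, chosen after their values were seen, were Mir449a of ciliated epithelium (0.81), Mir375 of endocrine and sensory epithelia (0.59), Mir100 (0.56), Gm24321 (0.52), Mir467c (0.40) and Mir425 (0.38).

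**Figure D3:**
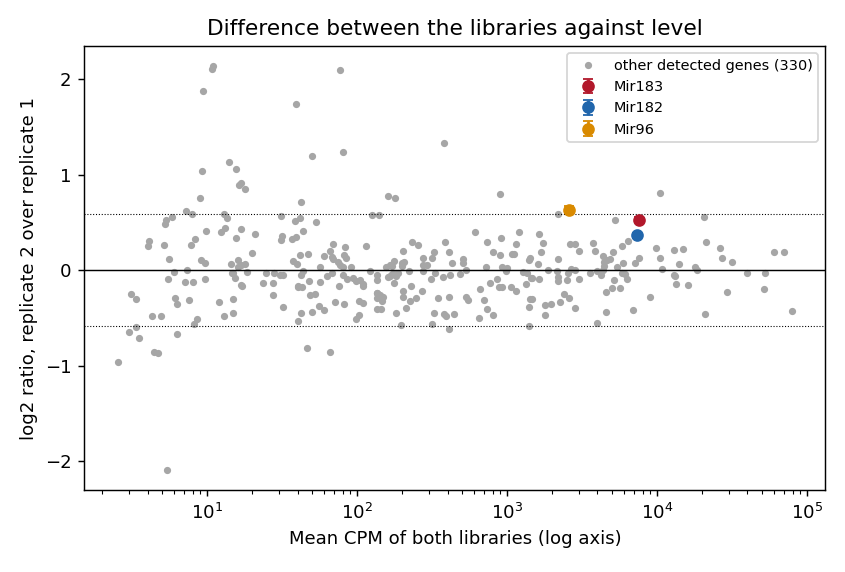
The log2 ratio of replicate 2 over replicate 1 of each detected gene (grey, 330 other genes; coloured, the 3 members with exact 95% intervals) against mean CPM on a log axis, with dotted lines at 1.5-fold. The members lie at 0.37, 0.53 and 0.63, above most genes of like level, and Mir96 alone of the 3 lies above the upper line.

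The shares of the members in the cluster shifted little between the pools, though by more than counting error. Mir183 made up 44.2% of the cluster's reads in replicate 2 (95% Clopper-Pearson interval 43.9 to 44.5), against 42.5% in replicate 1 (42.1 to 43.0). Mir182 made up 40.4% in replicate 2 (40.1 to 40.6), against 43.6% in replicate 1 (43.1 to 44.0). Mir96 made up 15.5% in replicate 2 (15.3 to 15.7), against 13.9% in replicate 1 (13.6 to 14.2). The share of Mir182 was thus smaller in replicate 2, and those of Mir183 and Mir96 were larger. The widest shift, that of Mir182, was −3.22 percentage points in replicate 2 relative to replicate 1.

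Ratios between members within a library do not depend on how the libraries are scaled. There were 1.09 reads of Mir183 per read of Mir182 in replicate 2, against 0.976 in replicate 1, a log2 change of 0.17 (95% interval 0.13 to 0.20, Fisher's exact test, p = 5.99e-22). There were 2.86 reads of Mir183 per read of Mir96 in replicate 2, against 3.06 in replicate 1, a change of −0.10 (−0.15 to −0.05, Fisher's exact test, p = 4.78e-05). There were 2.61 reads of Mir182 per read of Mir96 in replicate 2, against 3.14 in replicate 1, a change of −0.26 (−0.31 to −0.22, Fisher's exact test, p = 7.12e-28). The widest change was that between Mir182 and Mir96.

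Adjusted over all 600 pairs of detected genes within miRNA clusters, the 3 pairs had p-values of 7.05e-21, 0.000175 and 1.04e-26 in the same order (Fisher's exact test, Benjamini-Hochberg). The test called 50.3% of all such pairs, many of which hold genes with far fewer reads than the members. Like the binomial test, it is passed more easily with more reads and covers counting error only. With replicate error in place of counting error, Mir183 and Mir182 were present at 1.04 ± 0.0841 reads to 1, and Mir182 and Mir96 at 2.87 ± 0.372 to 1 (SD, n = 2). Mir183 and Mir96 were present at 2.96 ± 0.143 to 1 (SD, n = 2).

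The levels of the members were set beside those of other clusters, defined as counted miRNA genes on 1 strand less than 10 kb apart. There were 42 clusters with at least 2 detected genes and 14 with at least 3. The sensory cluster ranked 12 of the 42 by summed CPM. Its highest member exceeded its lowest 2.94-fold, which ranked 11 of the 42 from the smallest fold up, beside a median of 21.6-fold. Among the 14 clusters with at least 3 detected genes it was the smallest fold, the next smallest was 9.82-fold and the median 93.5-fold. Of these 14 clusters 7 hold no hairpin that shares 20 bases with another, and among those the sensory cluster again had the smallest fold. Clusters with more genes have more room for a wide fold, and reads that map to several places are missing from copied hairpins, so the ranks are a description only.

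The log2 ratios of its members lay within 0.26 of each other. This range was close to the median of 0.28 over the 42 clusters and ranked 21 among them from the narrowest up. Among the 14 larger clusters, whose median range was 0.72, only the Mir93 cluster had a narrower one, at 0.18. Ranges also widen with more genes and with few reads, so these ranks are a description only. In the widest, that of the Mir302a cluster, Mir302c had 20 reads in replicate 2 and 17 in replicate 1. With at least 100 reads in each library, the median over 38 clusters was 0.26. Of the 42 clusters 25 had all detected genes on the same side, and in 12 of the 42 all were higher in replicate 2. Of the 14 larger clusters 5 had all detected genes on the same side. In 2 of the 14 all were higher in replicate 2, the sensory cluster and the Mir449a cluster, whose ratios lay between 0.81 and 1.14. Within the latter only Mir449a was well counted. Mir449c had 134 reads in replicate 2, against 30 in replicate 1 (interval 0.48 to 1.69). Mir449b had 122 reads in replicate 2, against 26 in replicate 1 (interval 0.52 to 1.81). Ordered by the ratio of their lowest member, the Mir449a cluster was the first of all 42 clusters and the sensory cluster the second. The 4 clusters with the highest summed CPM, those of Mir99a, Mir23b, Mir411 and Mir322, had summed log2 ratios of 0.19, −0.22, −0.04 and 0.12.

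**Figure D4:**
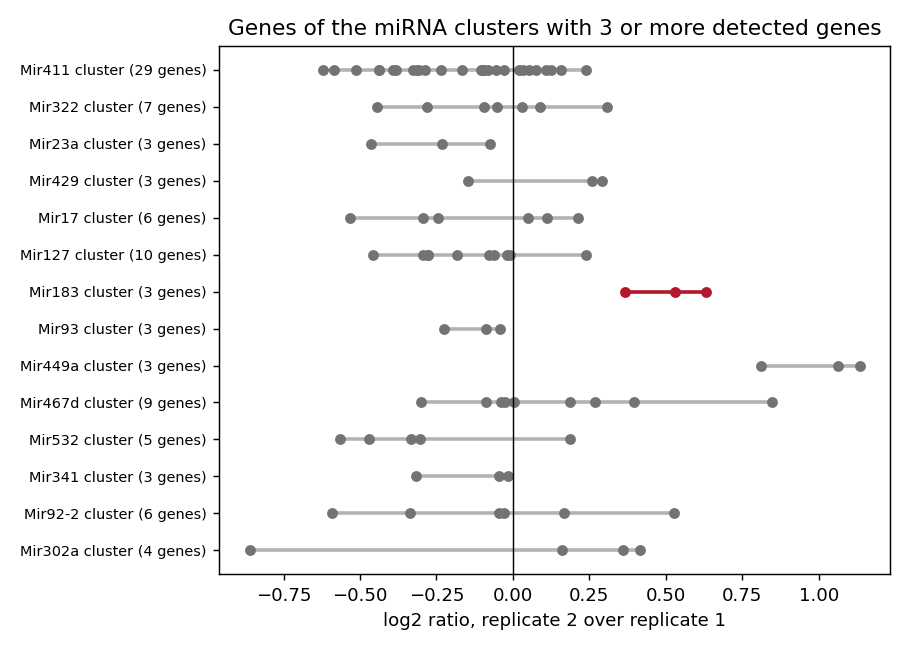
The log2 ratio of replicate 2 over replicate 1 of each detected gene (points) in the 14 miRNA clusters with at least 3 detected genes, ordered from the highest summed CPM at the top, with lines from the lowest to the highest member. The sensory cluster (red) runs from 0.37 to 0.63, and the Mir449a cluster is the only other one with all its genes above 0.

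Other miRNAs with the same seeds were looked up among the RefSeq mature sequences. Among the counted genes that this table holds, the only one outside the cluster with the seed of a member was Gm24195, whose mature miRNA miR-1271-5p carries the seed of miR-96-5p.
miR-1271-5p: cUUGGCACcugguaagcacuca
Gm24195 had no read in either library, so its upper limit, set by 3 reads, was 0.470 CPM for replicate 2, against 1.00 CPM for replicate 1. No other counted gene in the table had the seed of miR-183-5p or of miR-182-5p.

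Seeds that differ from a member's at 1 base were more abundant, and most of them resembled miR-183-5p. Mir652, the neighbour of Mir183 in level, has a mature miRNA whose seed differs from that of miR-183-5p by A7G. The miR-25 and miR-92 family differs from it by G4U, and its highest member Mir92-1 averaged 2393 ± 288 CPM, followed by Mir92b at 893 ± 339 CPM and Mir25 at 482 ± 9.79 CPM (SD, n = 2). Mir32 (141 ± 17.6 CPM), Mir92-2 (71.0 ± 11.7 CPM) and Mir363 (42.2 ± 0.938 CPM) carry the same change. The copies Mir92-1 and Mir92-2 share sequence, so their values are uncertain. Mir425 differs by G5A and averaged 1634 ± 301 CPM (SD, n = 2). Near the seed of miR-182-5p stood Mir450b at 202 ± 27.8 CPM and Mir450-1 at 31.9 ± 0.802 CPM, each through its 3p arm and by C6G. Mir450-1 shares sequence with another hairpin and is uncertain. No detected gene outside the cluster came within 1 base of the seed of miR-96-5p. The counts do not say which arm of these hairpins was read.

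With 2 libraries, likeness of pattern can only be a like ratio between them. Of 291 other genes with at least 50 reads on average, the 5 whose log2 ratio lay nearest that of the summed cluster were Mir193b (0.50), Mir702 (0.45), Mir1298 (0.52), Mir215 (0.43) and Gm24321 (0.52). All lay within 0.05 of the cluster's 0.48. The intervals of Mir702 (−0.14 to 1.06) and Mir215 (−0.08 to 0.97) included 0. None lies on chromosome 6, and Gm24321 was counted wholly from the opposite strand.

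Marker miRNAs of sensory, neural and epithelial tissues were set beside the cluster. The 3 pigment cell, retina and lens genes summed to 355 CPM in replicate 2, against 268 CPM in replicate 1, so that the sensory cluster exceeded them 57.5-fold in replicate 2 and 54.7-fold in replicate 1. Mir204 (log2 ratio 0.77) and Mir184 (0.55) passed the test toward replicate 2, and Mir211 did not pass it (−0.17, interval −0.36 to 0.02). With all reads of the library as denominator 2 of the 3 passed toward replicate 2 and 1 toward replicate 1. The 16 counted neural genes summed to 912 CPM in replicate 2, against 996 CPM in replicate 1. Of the 10 detected ones 0 passed the test toward replicate 2, 2 passed it toward replicate 1 and 8 did not pass, and with all reads of the library as denominator 3 passed toward replicate 1. Their highest members were Mir137 (199 ± 7.65 CPM), Mir128-1 (197 ± 54.8 CPM) and Mir132 (186 ± 2.48 CPM), and 4 of the 16 had at most 3 reads in each library, 2 of them none. Copied hairpins make up 12 of these 16 genes, so the sum holds only for reads mapped to 1 place.

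Epithelial lists lay nearer to the cluster in level. The 6 ciliated epithelium genes summed to 14715 CPM in replicate 2, against 8888 CPM in replicate 1, and 4 passed the test toward replicate 2, 1 toward replicate 1 and 1 in neither direction. Mir449a (10437 ± 4040 CPM), Mir34c (904 ± 149 CPM) and Mir34a (391 ± 90.8 CPM) led this list. Mir449a made up most of the sum, with 13293 CPM in replicate 2, against 7580 CPM in replicate 1. Mir34a was the gene that passed toward replicate 1 (log2 ratio −0.48). The 4 endocrine and sensory epithelium genes summed to 2689 CPM in replicate 2, against 1798 CPM in replicate 1. Mir375 (2183 ± 620 CPM) and Mir7b (16.9 ± 7.33 CPM) were higher in replicate 2, while Mir7-1 (39.4 ± 1.25 CPM) was not called (all SD, n = 2). Mir7-1 shares sequence with another hairpin and is uncertain.

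The 7 general epithelial genes went the other way in sum, at 128519 CPM in replicate 2, against 152004 CPM in replicate 1. The sensory cluster stood at 0.159 of this sum in replicate 2 and at 0.0964 in replicate 1. Mir203 (log2 ratio −0.43) and Mir205 (−0.46), both of stratified epithelium, were higher in replicate 1. The Mir200 family was mixed. Mir429 (0.29), Mir200b (0.26), Mir200c (0.13) and Mir141 (0.10) were higher in replicate 2, and Mir200a (−0.15) was higher in replicate 1. Over the list 4 genes passed toward replicate 2 and 3 toward replicate 1. With all reads of the library as denominator these counts were 2 and 5, and the list's median log2 ratio of 0.10 became −0.07. The median log2 ratios of the detected genes were 0.10 for epithelium, 0.58 for ciliated epithelium, 0.55 for pigment cell, retina and lens, −0.02 for neural and 0.59 for endocrine and sensory epithelium, beside −0.02 for all detected genes. The part of these tissues in the difference of the sensory cluster was not tested.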

How the data were processed

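Per the file lists, the values deposited by the authors are raw counts of reads for each miRNA gene on mm10 with GENCODE M4, with separate lines for unmapped reads and reads mapped to several places. Those last made up 29.7% of replicate 2 and 30.6% of replicate 1 and enter no gene. Which aligner and counter the authors used is not given in the sources used here. Names and positions came from GENCODE M21 on the same build by unversioned identifier (1894 of 1973 genes).

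Counts on either strand were scaled by TMM in edgeR 4.0.16 (R 4.3.3) from genes with at least 10 reads in each library. Levels are mean ± SD over 2 replicates, which the labels give as separate pools of embryos. Libraries were compared by exact binomial tests over all detected genes and by Fisher's exact tests within clusters, at an adjusted p of 0.05. The adjustment over all pairs within clusters was chosen after seeing the data, in place of one over the 3 pairs of members. Both tests cover counting error only. The first was run on simulated counts that held counting error alone, so the simulation cannot tell how the test behaves with replicate spread. The members and lists were chosen with earlier results of these data known. Most genes were named by a rule: members, their neighbours in level, the 5 nearest in log2 ratio, the top 3 of each marker list, seed relatives and the top 4 clusters. Outside this rule, genes of at least 1000 CPM with ratios at or above that of Mir182 were named after their values were seen. The same holds for the Mir93 and Mir449a clusters and further Mir200 family genes. Genes beside the cluster on chromosome 6 were named by position. Alternatives were total counts, DESeq2 1.42.0 size factors, other filters, the strand of the gene, Mir203 left out, the whole library as denominator, other cluster distances and each replicate left out. Folds came from RNAfold 2.7.2. Python 3.11.15, pandas 2.3.3, scipy 1.17.1 and matplotlib 3.10.9 were used.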

Additional observations from a re-analysis of the deposited data

Results flagged for a closer look

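On the strand opposite to Mir182, which the levels above do not separate, 4 reads were counted in replicate 2. They made up 0.00761% of the reads of Mir182 in that library, beside 52547 reads on the strand of the gene. Mir183 had 3 reads on its opposite strand in the same library, so the 4 reads do not set Mir182 apart.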

How the results depend on the processing

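Of 110 alternative values, 13 moved past the spread or count limit set for them, and 97 did not or, where a test was run, kept their direction and side of the threshold. Part of the 97 could not have moved. With n = 2, leaving out a replicate always shifts a mean by less than its SD. The read filters and the adjustment over all pairs leave the log2 values of the members as they are. The count of 97 is therefore no measure of robustness. All 3 members remained higher in replicate 2 and past the threshold under every scaling, filter and strand setting run. With all reads of the library as denominator the mean CPM was 3637 for Mir183, 3499 for Mir182, 1236 for Mir96 and 8372 for their sum, as the larger denominator implies. Under that scaling, which shifted the median log2 ratio of detected genes by −0.17, the log2 ratio was 0.36 for Mir183, 0.19 for Mir182, 0.46 for Mir96 and 0.30 for the sum, 49 genes were called higher in replicate 2 and 160 higher in replicate 1, against 86 and 92. Over 1.5-fold higher were 18 genes in replicate 2 and 39 in replicate 1, against 25 and 11. With DESeq2 size factors the ratio of the sum was 0.50. With at least 100 reads in each library 8 genes were over 1.5-fold higher in replicate 2 and 3 in replicate 1, and with no filter 198 and 132, against 25 and 11. With either replicate left out, the sum ranged from 14654 to 20391 CPM. No paired analysis was possible because there is only 1 group. Depth did not limit the members, whose counting intervals were narrow beside the difference between 2 pools, but n = 2 limits every statement on replicate error.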
